A study of Mus musculus with 20 samples.

Results

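The 9 genes described here encode the subunits of the transcription factor NF-kB and proteins that hold it in check: the subunits Nfkb1 (p105, cut to p50), Nfkb2 (p100, cut to p52), Rel (c-Rel), Rela (p65) and Relb, the inhibitors Nfkbia (IkB alpha) and Nfkbie (IkB epsilon), the ubiquitin-editing enzyme Tnfaip3 (A20) and the nuclear IkB family member Bcl3. They were taken by gene symbol from the 2 tables of counted reads and are 9 of 16740 genes listed for spleen and peripheral lymph nodes (pLNs) and 9 of 16784 listed for mesenteric lymph nodes (mLN). NF-kB dimers wait in the cytosol bound to IkB proteins. In the canonical arm, the IKK complex marks the IkB proteins for degradation and dimers such as p50 with RelA or c-Rel enter the nucleus, while in the noncanonical arm p100 is processed to p52, which pairs with RelB. Nfkbia, Nfkbie and Tnfaip3 are themselves induced by NF-kB and close a negative feedback loop, and c-Rel is known for its part in switching on Foxp3 during the development of regulatory T (Treg) cells.

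RNA sequencing was done on CD4+YFP+ Treg cells and on CD4+YFP- cells, named Foxp3- cells here, from C57BL/6 mice aged 14 weeks. WT mice carried Foxp3Cre alone and DKO mice were Tet2/3 fl/fl Foxp3Cre, so Cre was present in both genotypes. The Cre recombinase is joined to YFP and driven from the Foxp3 locus, so that deletion follows Foxp3 expression, and YFP marks the cells that express Foxp3 when they are sorted. Spleen and pLNs were pooled and gave 2 biological replicates of each of the 4 groups (8 libraries), and mLN gave 3 of each (12 libraries). The study asks how loss of the DNA dioxygenases Tet2 and Tet3 in Treg cells alters these cells and the Foxp3- cells beside them. The paper first reports no deletion in CD4+YFP- cells of DKO mice, but later finds Tet2 and Tet3 mRNA much reduced in them. It proposes that a large part of the activated ones are ex-Treg cells, which had expressed Foxp3 before. The DKO Foxp3- group may thus be a mix of deleted and undeleted cells. The labels name no animal for a library, so the p-values measure the spread between these samples, part of which may be technical.

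Depth ran from 13525932 to 15253141 counted reads per library for spleen and pLNs and from 9998478 to 15449158 for mLN. Levels are given as CPM, the count scaled to the library size after the TMM method, on which a floor of 3 counts is at most 0.299, and every member was above 20 CPM in every library. Foxp3 was at 153 to 419 CPM in Treg and 0.211 to 2.75 CPM in Foxp3- libraries. Reads on Tet2 and Tet3 do not check the genotype, since the counts include exons outside the deleted part: in mLN Treg cells Tet2 was at 10.4, 10.4 and 10.8 CPM in WT, against 11.4, 7.69 and 12.8 CPM in DKO, while Tet3 counts gave 69.0, 86.5 and 78.2 CPM in WT, against 68.5, 48.4 and 73.3 CPM in DKO. In Treg cells of spleen and pLNs, Tet2 was at 2.08 and 1.11 CPM in WT, against 8.01 and 2.05 CPM in DKO, while Tet3 gave 31.0 and 30.6 CPM and 61.0 and 38.1 CPM. Markers of other cells were summed per library. Over 3 NK cell markers, the mLN Treg libraries held 5.21 to 8.19 CPM in WT and 72.5 to 155.7 CPM in DKO, nearly all of it Klrb1c, while Ncr1 stayed under 1 CPM and Klra8 was at 0 in WT. Over 9 myeloid and dendritic cell markers, of which Cd14 and Itgax were at 0 in WT, the sums were 61.4 to 76.5 CPM and 95.5 to 126.6 CPM. B cell markers (8 genes, Pax5 at 0 in WT) were at 31.7 to 40.4 CPM in WT and 39.0 to 103.7 CPM in DKO mLN Treg libraries, and plasma cell markers (4 genes) at 152.9 to 159.3 and 124.4 to 579 CPM, with 2 of 3 DKO libraries below WT, so that both of these sums overlapped. CD8 cell markers (Cd8a and Cd8b1) were lower in DKO mLN Treg libraries, at 2.95 to 3.94 CPM, with 16.0 to 20.8 CPM in WT, and the 5 Treg cell markers summed to 1878 to 2039.9 CPM in WT and 1479.8 to 1679 CPM in DKO. Within that last sum Il2ra fell, from 703, 797 and 783 CPM in WT to 364, 240 and 450 CPM in DKO. Foxp3 (310, 299 and 326 CPM in WT, 277, 308 and 329 CPM in DKO), Ctla4 and Ikzf2 overlapped between the genotypes. In Foxp3- cells of mLN, the sum of 5 Treg cell markers was 132.6 to 137.4 CPM in WT and 177.5 to 348.5 CPM in DKO, but Foxp3 itself ran from 1.35 to 1.62 CPM in the WT libraries, while the DKO replicates held 2.75, 0.211 and 1.33 CPM. The sums that did not overlap in these cells were also those of NK cells (6.47 to 12.7 CPM in WT libraries, 30.9 to 135.6 CPM in DKO), plasma cells (69.6 to 82.6 and 85.8 to 649 CPM), B cells (5.69 to 6.82 and 9.67 to 21.3 CPM) and CD8 cells (21.5 to 23.3 and, lower, 4.996 to 10.1 CPM). The part of these markers in the results was not tested.

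Levels of different genes were compared per length, as TPM, within a library only, because the TPM scale differed between groups. In WT Treg cells of mLN, the most abundant members were Nfkb1 (193 to 203 TPM over the 3 libraries) and Nfkbia (162 to 225 TPM), which overlapped. Rela followed at 91.6 to 96.7 TPM. Tnfaip3 (50.1 to 69.4 TPM), Bcl3 (57.3 to 63.6 TPM), Nfkb2 (52.3 to 59.8 TPM) and Relb (48.0 to 55.0 TPM) lay close together, each range overlapping its neighbour in this order. Nfkbie at 37.5 to 40.9 TPM and Rel at 22.2 to 26.1 TPM were lowest, without overlap. In WT Treg cells of spleen and pLNs, Nfkbia led with 233 to 240.5 TPM, above Nfkb1 with 92.7 to 112 TPM, and Rel was again lowest with 20.1 to 21.7 TPM.

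The promoters of these genes were searched for the letters of a kB motif (GGG, any 3 bases, TTCC) on both strands, in RefSeq windows of GRCm38.p6 from 250 bases before to 50 bases after each start. Entries were found for 7 of the 9 genes, not for Nfkb1 and Relb. At least 1 promoter of 5 of these 7 genes held the letters, against 6.31% of all 27025 genes with an entry (5.56% of 32851 promoters), and the promoters of Rela and Bcl3 did not. All genes are not a matched background here. Apart from a Tnfaip3 window with 6 CG, the windows of these genes held 15 to 42 CG, against a median of 7 over all promoters. Nfkb2 and Tnfaip3 also had more than 1 window. The wider form (GGG, any 5 bases, CC), which contains the narrower one, was in promoters of 7 of 7 but also in those of 53.5% of all genes (50.8% of promoters), and the narrower form was chosen after that search. The windows show the match closest to the start of each of the 5 genes, and a second one for Nfkb2, because kB sequences near the start are the kind through which NF-kB is known to act on its own inhibitors and subunits. Each is 30 bases, 5′ to 3′ on the strand of the gene, with the match in capitals.
Nfkb2, chr19:46304689-46304718 (+), 38 bases upstream of the start: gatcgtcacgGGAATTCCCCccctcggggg
Nfkb2, chr19:46304716-46304745 (+), 11 bases upstream: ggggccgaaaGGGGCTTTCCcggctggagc
Rel, chr11:23771041-23771070 (-), 91 bases upstream: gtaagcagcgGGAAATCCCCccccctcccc
Nfkbia, chr12:55492657-55492686 (-), 29 bases upstream: tgactggcttGGAAATTCCCcgcgcctgac
Nfkbie, chr17:45555584-45555613 (+), 106 bases upstream: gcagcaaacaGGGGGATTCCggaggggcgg
Tnfaip3, chr10:19015403-19015432 (-), 12 bases upstream: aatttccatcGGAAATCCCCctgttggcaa
A match shows only that the letters are there. Rel and Tnfaip3 hold the same matched letters. On the build that the reads were aligned to (mm9), in the GENCODE M1 annotation and not the RefSeq one behind the counts, Nfkb2 lies at chr19:46379227-46386580 (+), Nfkbie at chr17:45692665-45700118 (+), Rel at chr11:23641514-23670970 (-), Nfkbia at chr12:56590398-56593634 (-) and Bcl3 at chr7:20393811-20408119 (-). Nfkb1 is at chr3:135247619-135354511 (-), Rela at chr19:5637483-5648130 (+), Relb at chr7:20191566-20214787 (-) and Tnfaip3 at chr10:18720716-18735463 (-). All 9 are annotated as protein-coding.

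Loss of Tet2 and Tet3 was first followed in mLN, where 3 replicates were at hand. In DKO Treg cells Nfkb2 and Nfkbie rose against WT, by less than the 1.5-fold set for a call, the other subunits overlapped between the genotypes and Bcl3 had lower values. Nfkb2, the precursor of p52, was at 97.5, 105 and 105 CPM in WT, against 169, 160.3 and 115 CPM in DKO Treg replicates. All 3 DKO values were above all 3 WT values, with replicate 3 nearest to WT. The log2 fold change was 0.53 ± 0.14 (SE, edgeR adjusted p = 0.0182), 1.45-fold. Nfkbie, the slow IkB inhibitor that also binds c-Rel, was at 51.8, 52.8 and 53.2 CPM in WT, against 86.0, 74.4 and 56.2 CPM in DKO. The WT values lay within 2 CPM of each other and below every DKO value, and replicate 3 of DKO was again the nearest. Its log2 fold change was 0.46 ± 0.12 (SE, edgeR adjusted p = 0.0197), 1.37-fold. Bcl3, an IkB-like protein that binds p50 and p52 dimers in the nucleus, went the other way, at 59.6, 62.4 and 62.3 CPM in WT, against 46.5, 34.8 and 57.0 CPM in DKO. Its groups did not overlap either, but the log2 fold change of −0.42 ± 0.17 (SE, edgeR adjusted p = 0.110) did not pass edgeR's test over all genes. In bulk libraries, fewer cells that express a gene and less RNA per cell cannot be told apart.

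The other subunits overlapped between the genotypes in mLN Treg cells. Nfkb1, the precursor of p50, was at 451, 454 and 445 CPM in WT, against 556, 483 and 415 CPM in DKO. Rel was at 32.5, 31.3 and 36.0 CPM in WT, against 48.3, 35.9 and 33.5 CPM in DKO. For both genes, replicate 1 stood highest. For Nfkb1, DKO replicate 2 was also above all WT values and replicate 3 below them, while for Rel both lay within the WT range. Relb, the partner of p52, was at 59.9, 65.9 and 59.4 CPM in WT, against 85.7, 68.2 and 60.5 CPM in DKO, where replicate 3 lay among the WT values. Rela, the main activating subunit of the canonical arm, was at 141, 141 and 139.8 CPM in WT, against 147, 135 and 141 CPM in DKO, and its log2 fold change of 0.0040 had a 95% interval from −0.17 to 0.18, so that a change of 1.5-fold in either direction lies outside it. Of the feedback inhibitors, Nfkbia was at 145, 159 and 189 CPM in WT, against 189, 152 and 133 CPM in DKO. Tnfaip3, which trims ubiquitin chains that activate IKK, was at 130.4, 174 and 168 CPM in WT, against 121, 173 and 127 CPM in DKO, and both genes overlapped. Log2 fold changes of the 6 members other than Nfkb2, Nfkbie and Bcl3 ran from −0.16 (Tnfaip3) to 0.24 (Rel). Replicate 1 held the highest DKO value for 7 of 9 members, and among all genes averaging 10 CPM or more it held the highest for 28.5%.

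A gene was called when its adjusted p was at most 0.05 and its fold change at least 1.5. In mLN Treg cells 0 of 9 members were called, by edgeR and by DESeq2, where edgeR called 11.9% of all 16784 genes tested. By adjusted p alone, 2 of 9 members passed (Nfkb2 and Nfkbie, both higher), against 19.4% of all genes in either direction and 11.1% in the higher one, and 3 of 9 had an unadjusted p under 0.05, against 32.4%. All DKO libraries were above all WT libraries for 2 members (21.3% of all genes) and below for 1 (19.2%). The median log2 fold change was 0.11 over the members and 0.0045 over all genes tested. These shares are near those of all genes. Replicate 3 decided the calls: without that DKO library, Nfkb2 (log2 fold change 0.69, adjusted p = 0.00316), Nfkbie (0.61, 0.00141) and Bcl3 (−0.60, 0.0335) were all called by edgeR, while the count over all genes went from 2001 to 1946. Without any 1 of the other 5 Treg libraries, WT or DKO, neither Nfkb2 nor Nfkbie passed the adjusted p (0.0545 to 0.0737 and 0.0592 to 0.0787 in edgeR), with Nfkbie down to 0.31 without DKO replicate 1.

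**Figure D1:**
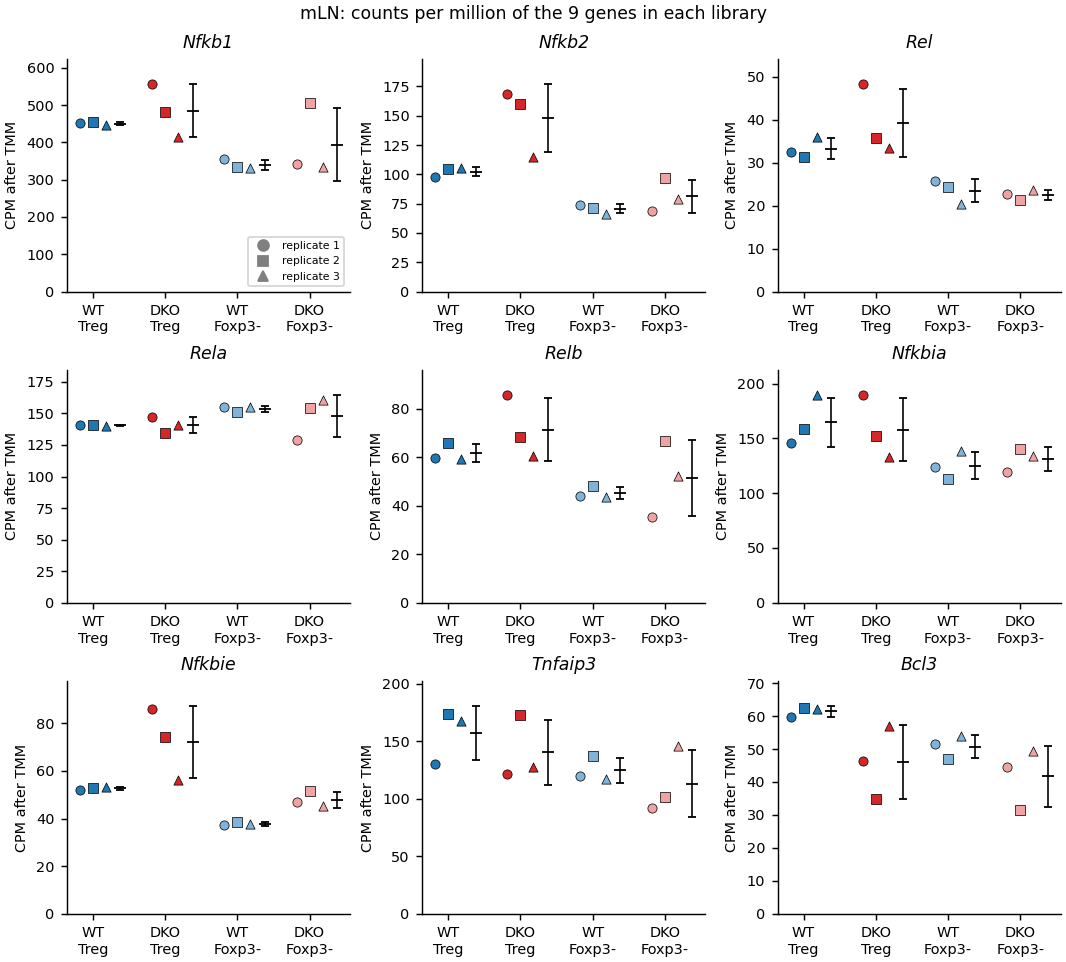
Level of each of the 9 genes in the 12 mLN libraries, in CPM after TMM scaling on a linear axis from 0, by group (WT and DKO, Treg and Foxp3-); symbols mark the replicate number, and the black dash and bar give the mean and SD of the group. The 3 WT values lie close together for most genes, and the DKO Treg values of Nfkb2 (115 to 169 CPM) and Nfkbie (56.2 to 86.0 CPM) lie above those of WT while those of Bcl3 (34.8 to 57.0 CPM) lie below.

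In Foxp3- cells of mLN, Nfkbie was the member whose genotypes did not overlap, and no member passed the adjusted threshold. It was at 37.1, 38.7 and 37.7 CPM in WT, against 46.8, 51.5 and 45.3 CPM in DKO, with no overlap, and its log2 fold change was 0.34 ± 0.12 (SE, edgeR adjusted p = 0.157), which does not pass. Nfkb2 was at 73.7, 71.6 and 66.2 CPM in WT, against 68.7, 96.7 and 78.8 CPM in DKO and overlapped. Nfkb1 was at 355, 335 and 330.5 CPM in WT, against 341, 506 and 334 CPM in DKO, and Relb at 44.2, 48.1 and 43.6 CPM in WT, against 35.6, 66.9 and 52.3 CPM in DKO. Replicate 2 of DKO stood highest for all 3 of these subunits, and it also held the highest sums of plasma cell (649 CPM), NK cell (135.6 CPM), myeloid and dendritic cell (112.7 CPM) and Treg cell markers. Ctla4, Ikzf2 and Tnfrsf18 carried the last of these sums, while Foxp3 (0.211 CPM) and Il2ra (12.3 CPM) were lowest in that library, and the part of these markers was not tested. The other members ran from a log2 fold change of −0.28 for Bcl3 to 0.21 for Nfkb1, all with overlap. Bcl3 was at 51.4, 46.9 and 53.9 CPM in WT, against 44.4, 31.4 and 49.3 CPM in DKO Foxp3- cells. With 0 of 9 members called by edgeR and DESeq2 (edgeR called 3.43% of all genes) and 1 of 9 at an unadjusted p under 0.05 (18.7% of all genes), the members did not stand out. All DKO libraries were above all WT libraries for 1 of 9 members, against 11.1% of all genes, and below for 0 of 9, against 9.74%.

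Whether the effect of the genotype differed from Treg to Foxp3- cells was tested as an interaction term. In mLN, 0 of 9 members passed an adjusted p of 0.05 in edgeR or DESeq2 (0.28% of all genes did in edgeR), and 0 of 9 had an unadjusted p under 0.05 (10.9% of all genes). The Treg effect exceeded the Foxp3- effect by 0.33 ± 0.20 (SE) on the log2 scale for Nfkb2, with a 95% interval from −0.10 to 0.76 and an edgeR adjusted p of 0.614. The same difference was 0.12 for Nfkbie (95% interval −0.26 to 0.49) and −0.13 for Bcl3 (95% interval −0.66 to 0.39). A difference of the Nfkb2 effect between the cell types did thus not pass.

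Treg cells were then set against Foxp3- cells of the same genotype, where both comparisons share libraries with those above. In WT mLN, Nfkb2, Rel and Nfkbie rose in Treg cells by less than 1.5-fold, and Rela was the member with lower values there. Nfkb2 was at 102 ± 4.19 CPM (mean ± SD, n = 3) in Treg and 70.5 ± 3.86 CPM in Foxp3- cells, Rel at 33.3 ± 2.42 and 23.5 ± 2.76 CPM, and Nfkbie at 52.6 ± 0.750 and 37.8 ± 0.793 CPM. Log2 fold changes were 0.54 ± 0.14 (SE, edgeR adjusted p = 0.0215) for Nfkb2, 0.50 ± 0.14 (SE, edgeR adjusted p = 0.0272) for Rel and 0.48 ± 0.12 (SE, edgeR adjusted p = 0.0206) for Nfkbie, all under the 1.5-fold minimum. Leaving out 1 of the 6 libraries took the adjusted p over 0.05 in 5 of 6 cases for Nfkb2 (edgeR, 0.0532 to 0.0868), in 5 of 6 for Rel (0.0541 to 0.122) and in 6 of 6 for Nfkbie (0.0542 to 0.0743). The exceptions were WT Treg replicate 1 for Nfkb2 and WT Foxp3- replicate 1 for Rel. Nfkb1 (0.40), Relb (0.45), Nfkbia (0.40) and Bcl3 (0.28) had higher values in every Treg library but did not pass. Tnfaip3 overlapped. Rela was lower in every Treg library, at 141, 141 and 139.8 CPM against 155, 151 and 155 CPM, a log2 fold change of −0.13 ± 0.082 (SE, edgeR adjusted p = 0.358).

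In WT mLN, edgeR and DESeq2 called 0 of 9 members, where edgeR called 10.1% of all genes, and 3 of 9 passed the adjusted p alone, all higher in Treg cells (15.1% of all genes in either direction, 8.97% higher). An unadjusted p under 0.05 was found for 6 of 9 (27% of all genes). Every Treg library was above every Foxp3- library for 7 of 9 members, against 22.3% of all genes, and below for 1 of 9, against 19.2%. The median log2 fold change of the members was 0.40, and that of all genes tested was 0.

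In DKO mLN, the gap between the cell types was widest for Nfkb2, Rel and Nfkbie, and these 3 of 9 members were called, all higher in Treg cells, against 11.2% of all genes in either direction and 7.75% higher. Nfkb2 was at 169, 160.3 and 115 CPM in Treg and 68.7, 96.7 and 78.8 CPM in Foxp3- cells. Its lowest Treg value was above its highest Foxp3- value, and the log2 fold change was 0.86 ± 0.14 (SE, edgeR adjusted p = 0.00109), 1.82-fold. Rel was at 48.3, 35.9 and 33.5 CPM in Treg and 22.6, 21.3 and 23.6 CPM in Foxp3- cells, likewise apart, with a log2 fold change of 0.80 ± 0.14 (SE, edgeR adjusted p = 0.00149). Nfkb2 and Rel stayed called in 15 of 15 alternatives, with log2 fold changes from 0.73 to 1.02 and from 0.63 to 0.90. Nfkbie had a log2 fold change of 0.59 ± 0.12 (SE, edgeR adjusted p = 0.00477), 1.51-fold, so close to the minimum that it kept its call in 7 of 15 alternatives. Same-numbered Treg and Foxp3- libraries of mLN varied together, and with this pairing as a block Nfkbie was at 0.575 (edgeR adjusted p = 0.00435), under the fold minimum. Relb (0.47), Tnfaip3 (0.31), Nfkb1 (0.30), Nfkbia (0.27), Bcl3 (0.15) and Rela (−0.071) overlapped between the cell types. Every DKO Treg library was above every DKO Foxp3- library for 3 of 9 members, against 15.1% of all genes, and below for 0 of 9 (12.3%), and 4 of 9 had an unadjusted p under 0.05, against 30.4%. The median log2 fold change was 0.31 over the members and 0.0093 over all genes. Without replicate 2 of the DKO Foxp3- cells, Relb was called as well (0.67, edgeR adjusted p = 0.00390). The count over all genes went from 1885 to 2934 there.

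**Figure D2:**
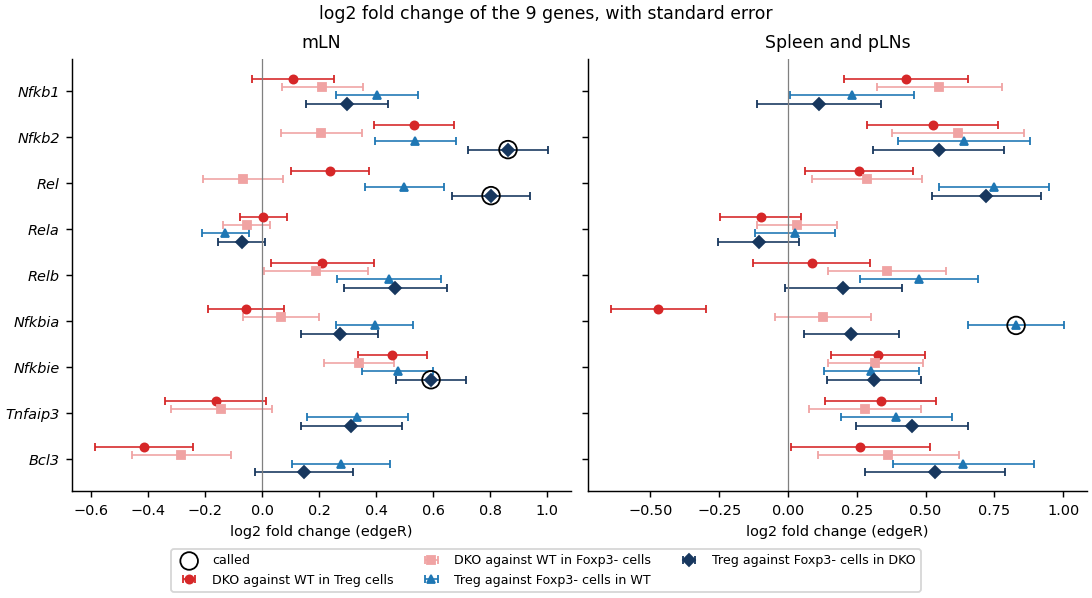
Log2 fold change of each of the 9 genes in 4 comparisons in mLN (left) and in spleen and pLNs (right), on a linear axis, with bars of 1 standard error from edgeR and open circles around called values. The Treg against Foxp3- values lie mostly to the right of 0, and the circles are at Nfkb2 (0.86), Rel (0.80) and Nfkbie (0.59) in DKO mLN and at Nfkbia (0.83) in WT spleen and pLNs.

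Spleen and pLNs, with 2 replicates a group, gave wider errors. Libraries of the same genotype stood apart there: replicate 1 of DKO Foxp3- cells was above both WT libraries for 9 of 9 members, and replicate 2 for 4 of 9 and below both for 3. Among genes averaging 10 CPM or more, these libraries were above both WT libraries for 38.3% and 34.3%, and below both for 52.6% and 40.4%. In Treg cells, DKO replicate 1 was above both WT libraries for 7 members and below both for 1, where 39% and 54.7% of these genes were, and replicate 2 was above for 4 and below for 3, where 38.2% and 47.7% were. The DKO mice of this tissue were littermates whose spleens differed in size, and the labels do not tell which number is which mouse.

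In DKO Treg cells of spleen and pLNs, Nfkbia was lower and several subunits were higher than in WT, all short of the adjusted threshold. Nfkbia, the fast-acting inhibitor, was at 248 and 262 CPM in WT, against 181 and 187 CPM in DKO. Both DKO values were well below both WT values, and the log2 fold change was −0.47 ± 0.17 (SE, edgeR adjusted p = 0.152), with an unadjusted p of 0.0184 in edgeR. Nfkb2 was at 116 and 120.5 CPM in WT, against 202 and 138 CPM in DKO, a log2 fold change of 0.53 ± 0.24 (SE, edgeR adjusted p = 0.239). Both DKO values were above WT, and replicate 1 far more. Nfkb1 was at 312 and 263 CPM in WT, against 432 and 341 CPM in DKO. Rel was at 37.9 and 35.8 CPM in WT, against 43.8 and 44.3 CPM in DKO. Nfkbie was at 65.0 and 67.1 CPM in WT, against 87.3 and 78.4 CPM in DKO. With Nfkb2, these make 4 members that were higher in both DKO libraries, with replicate 1 the farther from WT for Nfkb1, Nfkb2 and Nfkbie. Rela (−0.10), Relb (0.086), Tnfaip3 (0.34) and Bcl3 (0.26) overlapped. The DKO values were 148 and 97.2 CPM for Tnfaip3, with 94.9 and 99.0 CPM in WT. They were 72.6 and 47.0 CPM for Bcl3, with 47.9 and 51.9 CPM in WT. For both, replicate 1 was above WT and replicate 2 was not. In this comparison the fold change also followed gene length, with a median log2 fold change of −0.19 in the shortest 20% of genes and 0.18 in the longest 20%. After a correction for length, chosen after the data were seen, Nfkbia was at −0.36 and Nfkb1 at 0.37. NK cell markers summed to 6.19 to 7.38 CPM in WT and 88.8 to 112.6 CPM in DKO Treg libraries of this tissue, nearly all of it Klrb1c, and CD8 cell markers to 17.2 to 19.7 and 6.70 to 9.42 CPM. Cd8b1 made up nearly all of the CD8 sum, while Cd8a was at 0.0572 to 0.384 CPM in these Treg libraries. Stroma and endothelium markers (88.1 to 91.3 CPM in WT libraries, 103 to 109.6 CPM in DKO) and myeloid and dendritic cell markers (111.6 to 115.7 and 109.4 to 111.0 CPM) did not overlap either. Cst3 made up most of the latter sum and was lower in DKO (76.1 and 98.8 CPM) than WT (112.8 and 106.8 CPM). Itgam, Cd68, Lyz2, Csf1r, Tyrobp, Fcer1g and Itgax went the other way, higher in both DKO libraries, and Cd14 overlapped. Itgam reached 15.5 and 6.49 CPM there (WT libraries: 0.999 and 1.32 CPM). The part of all these markers in the values of the members was not tested.

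For Treg cells of spleen and pLNs, 0 of 9 members were called by edgeR and by DESeq2 (edgeR called 1.74% of 16357 genes tested), and 2 of 9 had an unadjusted p under 0.05 (20.4% of all genes). Both DKO libraries were above both WT libraries for 4 members (28.1% of all genes) and below for 1 (26.1%). The median log2 fold change was 0.26 over the members and 0.018 over all genes.

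**Figure D3:**
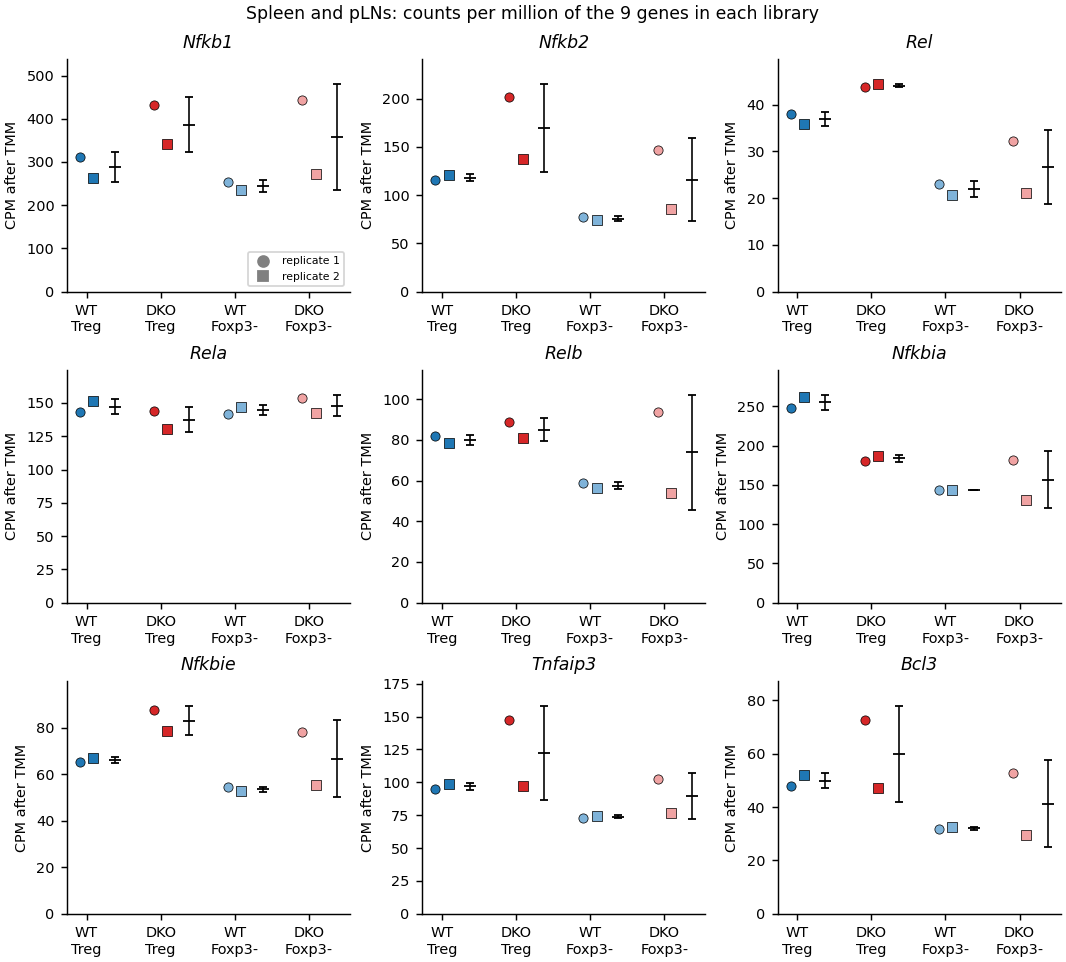
Level of each of the 9 genes in the 8 libraries of spleen and pLNs, in CPM after TMM scaling on a linear axis from 0, by group; symbols mark the replicate number, and the black dash and bar give the mean and SD of the group. The WT replicates lie close together for most genes, less so for Nfkb1 in Treg cells (312 and 263 CPM). The 2 DKO Foxp3- libraries differ for Nfkb1 (445 and 271 CPM), Nfkb2 and Relb, and Nfkbia in WT Treg cells (248 and 262 CPM) lies above the other groups.

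In Foxp3- cells of spleen and pLNs, Nfkb1 was at 255 and 234 CPM in WT, against 445 and 271 CPM in DKO. Nfkb2 was at 77.6 and 73.8 CPM in WT, against 147 and 85.7 CPM in DKO. Both were higher in both DKO libraries, far more in replicate 1. Their log2 fold changes were 0.55 ± 0.23 (SE, edgeR adjusted p = 0.322) and 0.62 ± 0.24 (SE, edgeR adjusted p = 0.284). Nfkbie was at 54.3 and 52.8 CPM in WT, against 78.2 and 55.1 CPM in DKO. Tnfaip3 was at 73.1 and 74.5 CPM in WT, against 102 and 76.9 CPM in DKO. These did not overlap either, by a narrow margin in replicate 2 of DKO. Relb was at 58.6 and 56.4 CPM in WT, against 93.7 and 53.9 CPM in DKO, and Bcl3 at 31.7 and 32.5 CPM in WT, against 52.8 and 29.7 CPM in DKO. For these, Rel, Nfkbia and Rela, replicate 1 was above WT and replicate 2 below it or between the WT values. Again 0 of 9 members were called by edgeR and by DESeq2 (edgeR called 0.819% of all genes), 2 of 9 had an unadjusted p under 0.05 (12.9%), and 4 of 9 were above WT in both DKO libraries (20.8%) with 0 of 9 below (21.1%). The median log2 fold change was 0.32 over the members and 0 over all genes. The summed Treg cell markers were at 199 to 220.4 CPM in WT, 226 CPM in DKO replicate 2 and 707 CPM in DKO replicate 1, where Ctla4 (344 CPM), Ikzf2 (178 CPM) and Tnfrsf18 (148.7 CPM) carried the sum and Foxp3 was lowest (0.251 CPM, with 0.563 to 0.741 CPM in the other 3 libraries). The same library held the highest sums of plasma cell markers (328 CPM, with 97.4 to 100.9 CPM in WT) and NK cell markers (211 CPM, with 58.0 to 95.6 CPM in WT), B cell markers (45.2 CPM, with 14.1 to 17.1 CPM) and myeloid and dendritic cell markers (127 CPM, with 81.0 to 84.7 CPM). Replicate 2 of DKO was above WT for these sums too, at 134.5, 102.7, 25.1 and 104.5 CPM. CD8 cell markers (14.8 to 17.8 CPM in WT libraries, 5.09 to 11.3 CPM in DKO, nearly all Cd8b1) and those of stroma and endothelium (143.9 to 147.6 and 79.1 to 133.3 CPM, nearly all Pecam1) were lower in both. The part of these markers was not tested. Replicate 2 decided the calls: without it, edgeR called Nfkb1 (log2 fold change 0.86, adjusted p = 0.00351), Nfkb2 (0.95, 0.00325), Relb (0.70, 0.00441) and Bcl3 (0.72, 0.0344), from 1 DKO library whose spread is assumed to equal that of the other groups. In that fit the count over all genes went from 134 to 2751, so that many other genes gained a call too. Without replicate 1, Nfkb2 was at 0.17 and Nfkb1 at 0.15.

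The interaction in spleen and pLNs gave 0 of 9 members in edgeR and DESeq2 (0.00611% of all genes in edgeR) and 1 of 9 at an unadjusted p under 0.05 (5.53% of all genes). That member was Nfkbia, a short gene (19.3% of genes averaging 10 CPM or more were shorter). Between DKO and WT, the shortest 20% of these genes had a median log2 fold change of −0.19 in Treg and −0.034 in Foxp3- cells. Not corrected for length, the log2 change of Nfkbia in Treg cells was lower than in Foxp3- cells by a signed difference of −0.60 ± 0.24 (SE, edgeR adjusted p = 0.902). Without replicate 2 of the DKO Foxp3- cells this difference was −0.82 (edgeR adjusted p = 0.0244). That fit took the interaction count over all genes from 1 to 674.

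Between the cell types, Nfkbia was the member called in WT mice of spleen and pLNs (1 of 9, higher in Treg cells, against 4% of all genes in either direction and 2.48% higher). It was at 248 and 262 CPM in Treg and 144 ± 0.0458 CPM (mean ± SD, n = 2) in Foxp3- cells, and its log2 fold change was 0.83 ± 0.17 (SE, edgeR adjusted p = 0.0179), 1.78-fold. The call was lost without any 1 of the 4 WT libraries (edgeR adjusted p from 0.182 to 0.267), with the value between 0.79 and 0.87, and also with the replicate number as a block (0.83, edgeR adjusted p = 0.0623). Rel was at 37.9 and 35.8 CPM in Treg and 23.1 and 20.7 CPM in Foxp3- cells, with a log2 fold change of 0.75 ± 0.20 (SE, edgeR adjusted p = 0.0613). Every member but Rela was above Foxp3- cells in both Treg libraries (8 of 9, against 28.1% of all genes, with 0 of 9 below, against 27.2%), and 5 of 9 had an unadjusted p under 0.05 (13.7%). The median log2 fold change was 0.48 over the members and 0 over all genes.

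In DKO mice of spleen and pLNs, 0 of 9 members were called between the cell types by edgeR and by DESeq2 (edgeR called 3.77% of all genes), and 3 of 9 had an unadjusted p under 0.05 (14.2%). Rel and Nfkbie were the 2 members with both Treg libraries above both Foxp3- libraries (17.4% of all genes), and 0 of 9 had both below (15.3%). Rel was at 43.8 and 44.3 CPM in Treg and 32.3 and 21.1 CPM in Foxp3- cells, a log2 fold change of 0.72 ± 0.20 (SE, edgeR adjusted p = 0.0701). Nfkbia, at 181 and 187 CPM in Treg and 182 and 131 CPM in Foxp3- cells, overlapped, with a log2 fold change of 0.23 ± 0.17 (SE, edgeR adjusted p = 0.647). Without replicate 1 of the DKO Foxp3- cells, edgeR called Rel (1.06), Bcl3 (1.01), Nfkb2 (0.99), Relb (0.66) and Nfkbie (0.59). Over all genes, that fit raised the count from 617 to 1586. Rel thus had a log2 fold change between 0.50 and 0.80 from Foxp3- to Treg cells in each of the 4 comparisons of cell types, and passed the adjusted threshold in both of mLN. Nfkb2 and Nfkbie passed it in both of mLN too. In WT mLN all 3 were under the 1.5-fold minimum, and Rel lost its adjusted p in 5 of 6 fits with a library left out. The mean of Nfkb2 in spleen and pLNs was 118 CPM in Treg and 75.7 CPM in Foxp3- cells of WT, and 170 and 116 CPM in DKO, where it overlapped.

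The make-up of the subunit pool was given by the share of each subunit gene in the summed TPM of the 5 subunit genes, which does not depend on library scaling. In mLN Treg cells, Nfkb2 took 12.8%, 13.5% and 13.7% of the pool in WT and 17.2%, 18.7% and 15.3% in DKO. All DKO shares were higher, with means of 13.3% ± 0.452 and 17.1% ± 1.70 (SD, n = 3; p = 0.1, exact two-sided permutation test, the smallest p that 3 against 3 can give). Nfkb1 took less, at 46.9% ± 0.492 in WT and 44.8% ± 0.578 in DKO (SD, n = 3; exact p = 0.1), again with no overlap. Rela (22.5%, 22.1% and 22.2% in WT, 18.2%, 19.1% and 22.8% in DKO), Relb and Rel overlapped between the genotypes. In Foxp3- cells of mLN, the Nfkb2 share was 11.2% ± 0.330 in WT and 11.9% ± 0.174 in DKO (SD, n = 3; exact p = 0.1). Rela took a larger share of the pool in Foxp3- than in Treg cells of WT mLN, 29.2%, 29.3% and 30.8% against 22.5%, 22.1% and 22.2%, with no overlap.

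In spleen and pLNs the Nfkb2 share of Treg cells was 16.3% and 17.8% in WT and 22.2% and 18.4% in DKO, and the Rela share 24.5% and 27.1% in WT and 19.2% and 21.3% in DKO. Neither pair of groups overlapped, but with 2 libraries against 2 the exact permutation test cannot go below p = 0.333. The Nfkb1 share of these cells was 35.1% and 31.0% in WT and 37.9% and 36.5% in DKO, so that its direction was opposite to that in mLN. In Foxp3- cells the Nfkb2 share was 13.6% and 13.4% in WT and 16.9% and 14.7% in DKO. The Nfkb2 share was thus higher in every DKO library than in every WT library of the same cells and tissue, in 4 of 4 pairs of groups. Other shares did not overlap either: in spleen and pLNs, those of Nfkb1, Rela and Relb in Treg cells. In Foxp3- cells there, these were Nfkb1 (mean 34.8% in WT, 39.0% in DKO), Rela (31.3% and 25.6%) and Rel. The pairs of groups are not independent, since both DKO cell types of spleen and pLNs came from the same 2 littermates. Over the 20 comparisons of shares (5 genes in 4 pairs of groups), the Benjamini-Hochberg adjusted p of the exact permutation tests was at least 0.556.

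**Figure D4:**
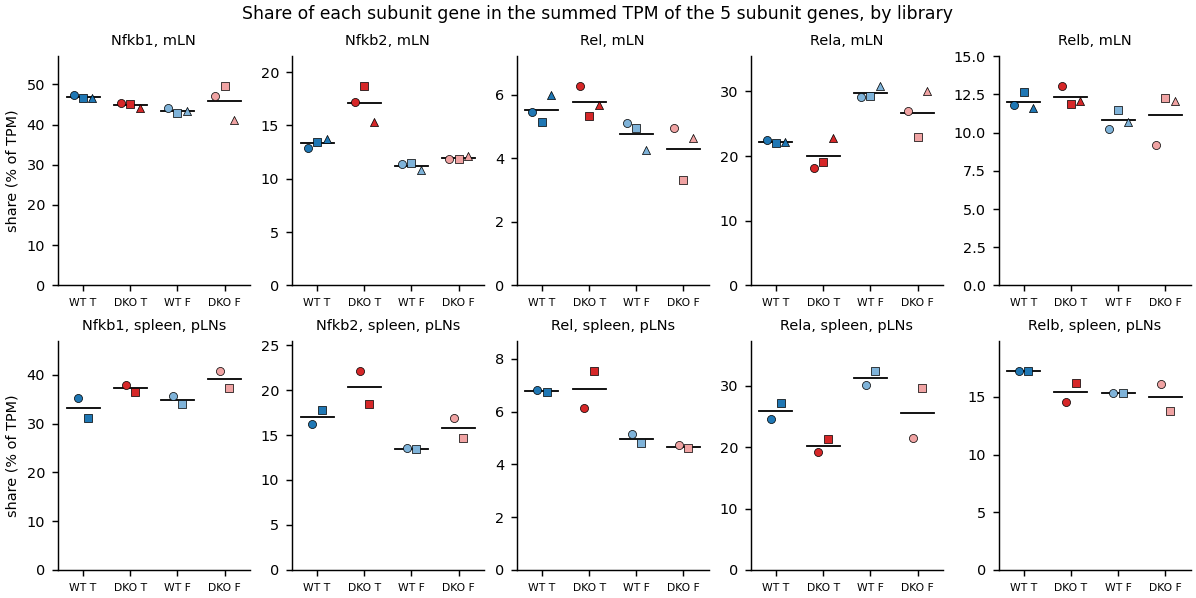
Share (%) of each subunit gene in the summed TPM of Nfkb1, Nfkb2, Rel, Rela and Relb, by library, on linear axes from 0, in mLN (top) and in spleen and pLNs (bottom), with T for Treg and F for Foxp3- cells; points are libraries, and the line is the group mean. The Nfkb2 share of DKO Treg cells (15.3% to 18.7% in mLN, 18.4% to 22.2% in spleen and pLNs) lies above that of WT.

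Around the members, the NF-kB pathway was described by 8 lists of genes. In mLN Treg cells, 0 genes of the signalling lists were called between DKO and WT by edgeR: 0 of 3 other IkB proteins, 0 of 7 genes of the IKK complex and TAK1, 0 of 4 of the CBM complex and PKC theta, 0 of 6 of the noncanonical arm and 0 of 11 negative regulators. DESeq2 called 0 of these 31 genes too, and 9 had an unadjusted p under 0.05. Over all genes these shares were 11.9% called and 32.4% at an unadjusted p under 0.05. The called genes of the lists were in those of receptors, ligands and targets. Of 13 receptors, 2 rose and 2 fell. Il1r1, the IL-1 receptor, averaged 2.45 CPM in WT and 32.1 CPM in DKO, a log2 fold change of 3.70 ± 0.75 (SE, edgeR adjusted p = 0.00457), and its DKO libraries ran from 11.8 to 72.5 CPM. Tnfrsf9 (4-1BB, a costimulatory receptor) rose from 188.0 to 366 CPM, a log2 fold change of 0.96 ± 0.23 (SE, edgeR adjusted p = 0.0124). Il18r1, the IL-18 receptor, fell from 102 to 35.1 CPM, a log2 fold change of −1.53 ± 0.23 (SE, edgeR adjusted p = 0.000934), and Tnfrsf1a, the TNF receptor, had −0.71.

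Of 8 ligands, 1 rose (Tnfsf4, under 10 CPM on average in both groups and named after its value was seen) and 3 fell in mLN Treg cells of DKO mice. Lta, lymphotoxin alpha, fell from 46.7 to 17.0 CPM, a log2 fold change of −1.46 ± 0.30 (SE, edgeR adjusted p = 0.00485). Ltb, which anchors it at the membrane, had −0.60 ± 0.086 (SE, edgeR adjusted p = 0.000620) and Tnf had −0.83 ± 0.23 (SE, edgeR adjusted p = 0.0237) on the same scale. Of 28 textbook NF-kB target genes, 3 rose and 4 fell, with a median log2 fold change of −0.15 over the list. Those that rose were the anti-apoptotic Bcl2a1a (1.54), Bcl2a1b (1.22) and Bcl2a1d (1.60), near-identical copies whose reads cannot be divided with certainty. Those that fell were Lta, Ltb and Tnf, also listed as ligands, and Il2ra (CD25), which went from 761 to 351 CPM, a log2 fold change of −1.12 ± 0.23 (SE, edgeR adjusted p = 0.00516). Il2ra is also a Treg cell marker. In Foxp3- cells of mLN, edgeR called 6 of the 76 genes of all lists, where it called 3.43% of all genes: Tnfrsf4 (1.99), Tnfsf8 (1.69), the same Bcl2a1 genes and Irf4 (0.95, named after its value was seen), all higher in DKO.

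Between the cell types of WT mLN, 12 of 28 target genes rose in Treg cells and 2 fell, where 6.91% of all genes were called higher. Those that rose most were Il2ra (5.55), the surface protein Cd83 (3.65) and Ebi3 (3.41), a subunit of IL-35. Those that fell were the chemokine Ccl5 (−1.68) and Junb (−0.65), a part of AP-1. Of 13 receptors 4 rose, with Tnfrsf4 (OX40) at 3.23 and Tnfrsf1b (the second TNF receptor) at 2.21. Among the ligands Lta rose (1.03) and Cd40lg, the CD40 ligand of helper T cells, fell (−1.85). Of the signalling lists, 6 of 31 genes were called, in both directions (10.1% of all genes were), among them the noncanonical kinase Map3k14 (NIK) at −0.88, Tab1 at −0.62, the IkB-like Nfkbiz at 0.87 and N4bp1 at 0.93. In DKO mLN, 10 target genes rose and 1 fell, 4 receptors rose and 1 of 8 ligands fell, where 7.75% of all genes were called higher. Of the 31 signalling genes 3 were called (11.2% of all genes in either direction), and Map3k14 was at −0.87. In mLN of both genotypes, Nfkb2 was thus higher, and the kinase that directs its processing lower, in Treg than in Foxp3- cells. Medians over the target list were 0.47 in WT and 0.52 in DKO mLN, against 0 and 0.0093 over all genes.

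In spleen and pLNs, 1 of 13 receptors (Il18r1, −2.00), 1 of 8 ligands (Tnfsf4, 1.89, under 10 CPM) and 1 of 28 targets (Myc, 0.86) were called between DKO and WT Treg cells by edgeR, which called 1.74% of all genes. Of the 76 genes of all lists, DESeq2 called 6 there (648 of all genes), and 22 had an unadjusted p under 0.05 in edgeR (20.4% of all genes). In Foxp3- cells edgeR called 0 of the 76 genes (0.819% of all genes) and DESeq2 6 (376 of all genes), and 25 had an unadjusted p under 0.05 (12.9% of all genes). Between Treg and Foxp3- cells of WT, 7 targets rose and 2 fell, 5 receptors rose, and 1 ligand rose and 1 fell, where 4% of all genes were called and 2.48% were higher. In DKO, 7 targets rose and 2 fell, 4 receptors rose and 2 of 8 ligands fell, where 3.77% of all genes were called. Of the 31 signalling genes, 3 were called in WT and 0 in DKO by edgeR, with 0 by DESeq2 and 5 at an unadjusted p under 0.05 in DKO (14.2% of all genes). Map3k14 was at −1.13 in WT and −0.11 in DKO, where it was not called. The interaction of genotype and cells passed for 0 of 76 genes in edgeR in either tissue, for 3 in mLN (409 of all 16784 genes) and 0 in spleen and pLNs (11 of all 16357) in DESeq2, and at an unadjusted p under 0.05 for 13 in mLN (10.9% of all genes) and 11 in spleen and pLNs (5.53%).

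**Figure D5:**
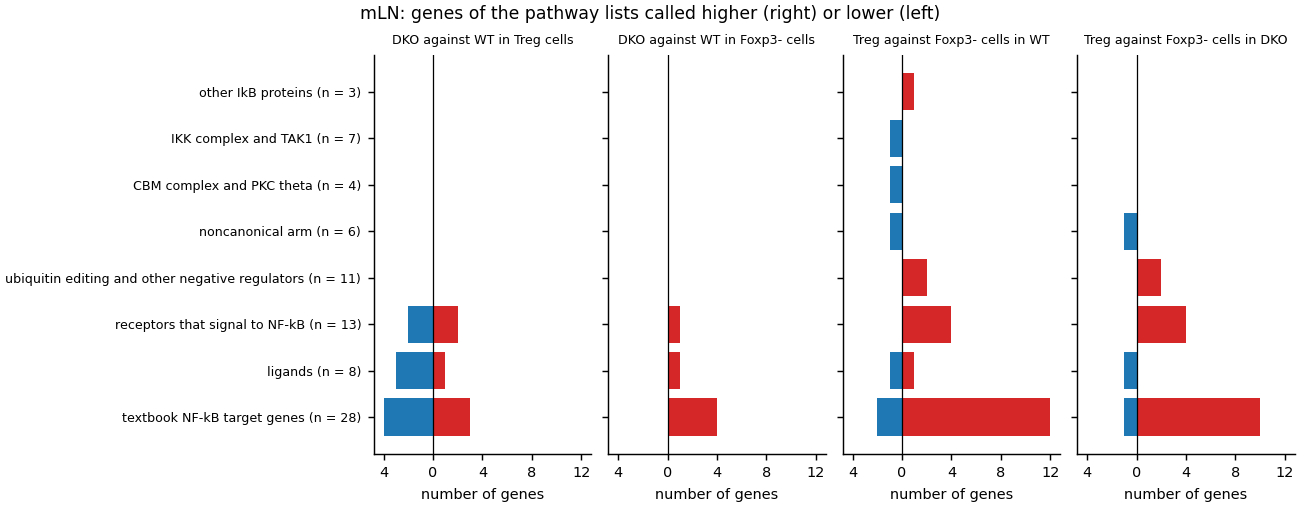
Number of genes of each pathway list called higher (bars to the right of 0) or lower (to the left) in 4 comparisons of mLN, with the number of genes in a list given as n. Bars for DKO against WT in Treg cells appear for receptors (2 up, 2 down), ligands (1 up, 3 down) and targets (3 up, 4 down), and the longest bar is that of 12 target genes higher in Treg than in Foxp3- cells of WT mice.

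The genes whose pattern over the 12 mLN libraries was most like that of a called member were found by the root mean square difference of log2 CPM, each gene centred on its mean, among 8401 genes. For Nfkb2 the nearest was Sdf4, at a difference of 0.0988 where the median over all these genes was 0.485. Sdf4 was also nearest to Nfkbie (0.0921, median 0.416), and Dpy19l3 was nearest to Rel (0.149, median 0.423). In the 8 libraries of spleen and pLNs, the difference between Nfkb2 and Sdf4 was 0.374, between Nfkbie and Sdf4 0.218 and between Rel and Dpy19l3 0.310, and these genes were picked for their likeness in mLN.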

How the data were processed

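RNA from sorted CD4+YFP+ and CD4+YFP- cells was made into stranded mRNA libraries (20 in all) and sequenced. Per the labels and the methods of the study, the authors aligned reads to mm9 with TopHat2 2.1.1, with no read aligned more than 1 time, and made the deposited gene counts with strand-specific featureCounts (Subread 1.4.3-p1). The deposited TPM values were also made by the authors, by a calculation not given in the sources used here. Counts divided by TPM gave a constant length per gene.

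Genes with at least 1 count in a tissue were tested with edgeR 4.0.16 (limma 3.58.1, R 4.3.3): TMM scaling, 1 fit per tissue over the 4 groups, quasi-likelihood F-tests and Benjamini-Hochberg adjustment over all genes. A gene was called at an adjusted p up to 0.05 with a change of 1.5-fold or more (for the interaction, the adjusted p alone). Standard errors are the log2 fold change divided by the square root of F. Subunit shares, taken within a library from TPM, were compared by two-sided exact permutation tests. The code was tested on simulated counts. The common dispersion gave a coefficient of variation of 21.6% in spleen and pLNs and 17.7% in mLN, and no 2 columns were identical.

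Same-numbered Treg and Foxp3- libraries of 1 genotype deviated together in mLN (6 of 6 correlations over 0.1, from 0.138 to 0.544) and were taken as pairs from these data; no label gives the pairing. Of 12 pairs with different numbers, 1 was also over 0.1: Foxp3- replicate 1 of DKO correlated at 0.178 with Treg replicate 3 and at 0.138 with its own number. Across genotypes 6 of 12 same-numbered pairs were over 0.1 (1 of 24 with different numbers), too few to count as pairing, and with 2 replicates in spleen and pLNs the numbers could not be tested, although the study took both DKO cell types there from the same 2 littermates.

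The members, the pathway lists and the tests were chosen with earlier results of these data known. From each list the text names at most 3 called genes in each direction, those with the largest change at a mean of at least 10 CPM. Genes on 2 lists can be named under both, Tnfsf4 and Irf4 were named outside this rule, and other called genes are given by count. The result of 1 gene is not reported here. For each member called in mLN it names the gene of most like pattern there. Alternatives were DESeq2 1.42.0 (test and size factors), filterByExpr, a robust prior, the replicate block, only the groups compared, no fold minimum, each library left out and, chosen after the data were seen, a correction for gene length (loess, span 0.5).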

Additional observations from a re-analysis of the deposited data

How the results depend on the processing

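Over 76 log2 values of the members (fold changes and interaction terms) and 1080 recomputed values, 1017 kept their direction and their side of the threshold, 23 newly passed it, 13 no longer passed it and 27 changed sign. Of these 27, 25 came from leaving out 1 library.

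The number of members called changed as follows. In WT spleen and pLNs, Treg against Foxp3- cells gave 1 member, 0 with the replicate block within genotype, 2 with the block and the length correction, 4 when only these groups were fitted and 0 to 0 when a library was left out. The fit of these groups alone added Nfkb2, Rel and Bcl3. In DKO spleen and pLNs the same contrast gave 0 to 5 when a library was left out, the 5 without replicate 1 of the Foxp3- cells. DKO against WT gave 0 to 4 in Foxp3- cells, the 4 without DKO replicate 2, and the interaction 0 to 1. In mLN, with no fold minimum, DKO against WT in Treg cells gave 2 and Treg against Foxp3- cells in WT gave 3. DKO against WT in mLN Treg cells gave 0 to 3 when a library was left out, the 3 without DKO replicate 3. Treg against Foxp3- cells in DKO mLN gave 3, and 2 to 4 when a library was left out, the 4 without replicate 2 of the Foxp3- cells, and 2 in each fit with the block or the length correction and in the fit of these groups alone. With 2 replicates a group, leaving 1 out assumes that the lone library varies like the other groups. With the replicate block, Nfkbia in WT spleen and pLNs was at 0.83 (edgeR adjusted p = 0.0623); same-numbered libraries there correlated at 0.206 to 0.319. The DKO cells of both types came from the same 2 mice, but no label ties a number to a mouse, so whether the numbers pair them is not known. Beside this call and that of Nfkbie in DKO mLN the block changed none of a member, and it moved the count of all genes with an interaction in mLN from 47 to 118.

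Nfkb2 in DKO against WT mLN Treg cells ranged from 0.43 to 0.69 on the log2 scale when a library was left out, with edgeR adjusted p from 0.00316 to 0.0737 over all alternatives, and Nfkbie from 0.31 to 0.61, with 0.00141 to 0.0787.

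No value that changed sign was called. With the length correction, Rela in DKO against WT mLN Treg cells was at −0.00054, and with the length correction and the replicate block at −0.00056. The share of Rel in Treg cells of spleen and pLNs differed by −0.0806 points with counts not divided by length. When a library was left out, log2 fold changes of DKO against WT in spleen and pLNs ranged from −0.088 to 0.54 for Bcl3 in Treg cells, and in Foxp3- cells from −0.058 to 0.56 for Rel, −0.027 to 0.087 for Rela, −0.099 to 0.70 for Relb, −0.13 to 0.34 for Nfkbia and −0.11 to 0.72 for Bcl3. Treg against Foxp3- cells there ranged from −0.014 to 0.065 for Rela in WT, and in DKO from −0.20 to 0.51 for Nfkb1 and −0.14 to 0.66 for Relb. In mLN, DKO against WT ranged in Treg cells from −0.0032 to 0.21 for Nfkb1, −0.028 to 0.036 for Rela and −0.21 to 0.056 for Nfkbia, and in Foxp3- cells from −0.00053 to 0.32 for Nfkb1, −0.15 to 0.012 for Rel, −0.12 to 0.038 for Rela, −0.036 to 0.40 for Relb and −0.0023 to 0.15 for Nfkbia. Treg against Foxp3- cells in DKO mLN ranged from −0.059 to 0.31 for Bcl3, and the interaction from −0.027 to 0.27 for Nfkbie and −0.34 to 0.037 for Bcl3. Differences in share ranged, in points, from −0.637 to 0.790 for Rel in Treg and −1.53 to 0.769 for Relb in Foxp3- cells of spleen and pLNs, and in mLN from −0.0263 to 0.461 for Rel and −0.0593 to 0.630 for Relb in Treg and −0.796 to 0.0272 for Rel and −0.202 to 1.35 for Relb in Foxp3- cells. The cause of these changes was not tested.

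Counts over all genes moved by over 1.5 times in spleen and pLNs: DKO against WT gave 285 in Treg cells, with 24 (filterByExpr) to 1256 (only these groups) and 4 to 1696 when a library was left out, and 134 in Foxp3- cells, with 1 to 376 and 1 to 2751. DESeq2 gave 648 and 376. In mLN, Foxp3- cells gave 575 and 57 to 1453 when a library was left out. DESeq2 gave 929 there, the robust prior 323 and the fit of these groups alone 2. Treg cells of mLN gave 2001, with 3249 without a fold minimum and down to 1325 when a library was left out. Treg against Foxp3- cells gave 654 in WT spleen and pLNs (379 with filterByExpr, 360 with the block, 2060 in the fit of these groups alone, 144 to 198 with a library left out) and 617 in DKO (342, 348, 190, 185 to 1586). In mLN it gave 1687 in WT (2544 in the fit of these groups alone) and 1885 in DKO (906 there, 2956 without a fold minimum, up to 2934 with a library left out). Interaction counts were 1 in spleen and pLNs, with 0 to 674 when a library was left out, and 47 in mLN, with 409 in DESeq2 and 9 to 462.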
